A study of Mus musculus with 2 samples.

Results

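The genes examined were the 7 that make, package and take back dopamine or supply the cofactor that its synthesis needs. They were Th, Ddc, Slc18a2, Slc6a3, Gch1, Pts and Qdpr, chosen by name as 7 of the 20210 genes in the deposited table of both libraries. Single-cell RNA sequencing (10x Genomics 3′ chemistry, version 3) was done on hypothalamic cells of CD-1 mice at postnatal day 10, and the cells came from the arcuate nucleus and median eminence. A Cre recombinase driven by the Ins2 promoter switched on tdTomato from the Ai14 reporter allele in both groups, and only viable cells with red fluorescence were sorted. The control group carried Ins2-Cre and tdTomato alone. The dHet group carried them with 1 disrupted copy each of the homeobox genes Irx3 and Irx5 (Irx3/5+/-). Each group was 1 library from 1 pool, so the genotypes were compared without replicates and no p-value could be given. The pool held 5 mice according to the sample label, while the protocol gives a range that begins at 5. The sort also limits what the cells stand for, since a neuron in which Ins2-Cre was never active is not in these data.

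Dopamine is made in 2 steps. Th (tyrosine hydroxylase) turns tyrosine into L-DOPA and is the rate-limiting enzyme, and Ddc (aromatic L-amino acid decarboxylase) turns L-DOPA into dopamine. Th needs tetrahydrobiopterin, which is built by Gch1 (GTP cyclohydrolase, the rate-limiting enzyme of that route) and Pts, and is regenerated after use by Qdpr. Slc18a2 (VMAT2) loads monoamines into vesicles, and Slc6a3 (DAT) takes dopamine back up from outside the cell. In the arcuate nucleus, tuberoinfundibular dopamine neurons release dopamine at the median eminence, where it reaches the pituitary and restrains prolactin secretion. The same nucleus is also known for neurons that have Th without Ddc, and others that have Ddc without Th.

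The question asked of the 7 genes was which cells held the whole pathway, which held a part of it, and whether levels differed between the libraries. After removal of 42 predicted doublets the data held 3462 control and 3914 dHet cells, with medians of 16459.5 and 17104 unique molecular identifiers (UMIs, 1 for each captured transcript) per cell. Levels are UMIs of a gene per 1000000 UMIs of the cells named (CPM). All intervals are exact 95% intervals that cover counting error only, not differences between mice. Those of levels and ratios count pooled UMIs, so they leave out the spread between cells as well. The targeted genes went the way the labels say. Irx3 had 92 UMIs in the control and 42 in the dHet library (1.47 and 0.590 CPM, ratio 0.402, 0.272 to 0.586), and Irx5 had 180 and 106 (2.87 and 1.49 CPM, ratio 0.519, 0.404 to 0.664). Both are scarce in neurons. All neuron-like cells together held 9 and 2 UMIs of Irx3 and 13 and 2 of Irx5. The clusters with most Th held 1 UMI of Irx3, in a control cell, and none of Irx5. The libraries also differed in sex-linked genes, as seen in the share of neuron-like cells with Xist UMIs and none from 4 Y-linked genes (50.2% and 65.1%), and in immediate-early genes, whose values are given beside the genotype results.

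Promoter stretches of the 5 genes whose levels varied most between neuron clusters are shown because they differ in whether they carry the cAMP response element, the activity-linked sequence known from the Th promoter. They are RefSeq sequences on GRCm38.p6, printed 5′ to 3′ on each gene's own strand, covering the 130 bases before the annotated start, and for Slc18a2 also the first 10 bases after it. Capitals mark the motifs searched on both strands, which were TGACGTCA (cAMP response element), AAAGGTCA (read by Nr4a family receptors, TGACCTTT on the opposite strand) and GGCGGG (Sp1-like box, CCCGCC on the opposite strand). Other forms of the Sp1-like box were not searched, so a stretch without these letters may still hold one.
Th, chr7:142899996-142900125 (minus strand): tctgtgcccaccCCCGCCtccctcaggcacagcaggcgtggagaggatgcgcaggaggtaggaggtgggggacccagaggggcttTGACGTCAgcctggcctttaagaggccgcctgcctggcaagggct
Slc18a2, chr19:59260748-59260887 (plus strand): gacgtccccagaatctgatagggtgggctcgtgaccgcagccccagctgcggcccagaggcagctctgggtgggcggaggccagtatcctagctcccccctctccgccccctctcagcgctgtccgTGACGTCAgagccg
Ddc, chr11:11898145-11898274 (minus strand): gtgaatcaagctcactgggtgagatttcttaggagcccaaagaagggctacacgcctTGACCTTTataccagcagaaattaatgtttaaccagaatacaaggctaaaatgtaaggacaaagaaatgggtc
Slc6a3, chr13:73536617-73536746 (plus strand): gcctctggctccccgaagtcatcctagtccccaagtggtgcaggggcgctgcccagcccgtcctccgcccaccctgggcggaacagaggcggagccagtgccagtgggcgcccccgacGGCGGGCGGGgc
Gch1, chr14:47189414-47189543 (minus strand): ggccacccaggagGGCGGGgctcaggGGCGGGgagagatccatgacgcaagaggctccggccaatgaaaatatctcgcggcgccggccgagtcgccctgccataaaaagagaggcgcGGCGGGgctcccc
TGACGTCA begins 45 bases before the Th start and 4 bases before the Slc18a2 start. In windows of 300 bases (250 before and 50 after the start), these 8 letters stood in 2 of the 7 genes and in 1.79% of 32851 windows of all genes. AAAGGTCA was found in the upstream window of Ddc only among the 7 genes, beginning 73 bases before the start, and in 1.51% of all windows. GGCGGG was found in Th, Slc6a3, Gch1, Pts and Qdpr and in 35.3% of all windows, so it sets these genes little apart. In Slc6a3 it occurs in 2 overlapping copies, and in Gch1 in 3 separate ones. Ddc has a second annotated start, whose window held none of the 3 motifs, and reads from 3′ ends do not tell the starts apart. A match describes letters in the reference and says nothing of binding in these cells.

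Th was almost wholly neuronal and sat in few neurons. The gene (ENSMUSG00000000214) spans 142892752 to 142931128 of chromosome 7 (GRCm38, minus strand). Some GENCODE transcripts begin at the far end of this span, while the RefSeq start used for the printed stretch lies inside it. UMIs read at the 3′ end do not tell these starts apart. Of its 3233 UMIs in both libraries, 99.8% were in neuron-like cells and 80.3% in 4 of the 20 neuron clusters. Clustering left out all 7 genes, so their levels did not shape the clusters, which are called here by 2 of their leading genes. The Sst/Hmgn5 cluster (10 control and 20 dHet cells) had Th at 348 and 421 CPM and a Th UMI in every cell. The Ghrh/Gal cluster (65 and 95 cells), named for growth hormone-releasing hormone and galanin, had 265 and 316 CPM, with a Th UMI in 87.7% and 94.7% of cells. The Sp9/Lhx1os cluster (81 and 105 cells) had 246 and 169 CPM, with Th in 51.9% and 52.4% of cells. The Trh/Ebf1 cluster (48 and 84 cells) had 91.1 and 129 CPM, with Th in 45.8% and 59.5% of cells. Ghrh/Gal and Sp9/Lhx1os were close to each other in the control library and apart in the dHet library. The fifth cluster, Trh/Unc13c, fell to 29.9 and 19.2 CPM, and the median of the 20 clusters was 6.07 CPM with both libraries together. Among 848 astrocyte-like cells (median 6030 UMIs, against 21973 in neuron-like cells), 2 had a Th UMI (0.236%). Shares of neurons can be read beside this value. Whether these UMIs came from free RNA was not tested.

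Ddc was spread more widely and was not highest where Th was. The gene (ENSMUSG00000020182) spans 11814101 to 11898144 of chromosome 11 (minus strand). A Ddc UMI was seen in 34.6% of control and 32.9% of dHet neuron-like cells, against 10.6% and 11.9% for Th. The Sp9/Lhx1os cluster led with 272 and 305 CPM and Ddc in 84.0% and 83.8% of cells. Ghrh/Gal had 143 and 119 CPM and Trh/Unc13c had 129 and 114 CPM, and the libraries of these clusters overlap. Ddc was scarce in the other Th clusters. Sst/Hmgn5 had 2 and 4 UMIs and Trh/Ebf1 had 2 and 12, the lowest levels of all 20 neuron clusters with both libraries together (6.02 and 5.21 CPM, against a median of 22.5 CPM). The cluster that ranked first for Th therefore ranked next to last for Ddc. Only 35.3% of the 4702 Ddc UMIs were in the 4 Th clusters.

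The transporters singled out the Sp9/Lhx1os cluster. Slc18a2 (ENSMUSG00000025094, plus strand of chromosome 19, 59260896 to 59296012) was at 275 CPM in control and 283 CPM in dHet cells of that cluster, which held 44.3% of all its UMIs. The next cluster was Pomc/Rnf128, the neurons of the melanocortin precursor, with 45.0 and 47.0 CPM and Slc18a2 in 38.4% and 40.9% of cells. Those neurons had 6 and 8 Th UMIs in 99 and 203 cells. Slc18a2 in Ghrh/Gal was at 26.1 and 22.0 CPM. Slc6a3 (ENSMUSG00000021609, plus strand of chromosome 13, 73536747 to 73578672) had 61.6% of its 378 UMIs in the Sp9/Lhx1os cluster. There it was at 55.1 and 60.1 CPM, and the next cluster, Grp/Penk, was at 3.33 CPM with both libraries together. Slc6a3 had 3 and 7 UMIs in Ghrh/Gal, 1 and 0 in Trh/Ebf1 and 1 and 2 in Sst/Hmgn5. Astrocyte-like cells had a Slc18a2 UMI in 0.472% and no Slc6a3 UMI, which allows up to 0.434%.

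The cofactor genes followed 2 patterns. Gch1 (ENSMUSG00000037580, minus strand of chromosome 14, 47153895 to 47189413) was highest in Sp9/Lhx1os in the control library, at 69.8 CPM, and was at 43.6 CPM there in the dHet library. Agrp/Npy neurons, the hunger-promoting neurons of the arcuate nucleus, were at 55.9 and 53.0 CPM and so above Sp9/Lhx1os in the dHet library. Agrp/Npy neurons held 33.6% of all Gch1 UMIs and the 4 Th clusters 14.3%. Pomc/Rnf128 came next with 24.3 CPM over both libraries. Th-rich Ghrh/Gal had 13.0 and 7.65 CPM of Gch1 (20 and 16 UMIs), and Sst/Hmgn5 had 4 and 5 UMIs. Pts (ENSMUSG00000032067, minus strand of chromosome 9, 50521617 to 50528724) and Qdpr (ENSMUSG00000015806, minus strand of chromosome 5, 45434021 to 45450236) were found throughout. Their highest neuron cluster stood 1.43 times (Pts) and 1.36 times (Qdpr) above the median cluster, against 65.5 times for Th, 48.5 for Slc6a3, 36.9 for Slc18a2, 12.9 for Ddc and 4.50 for Gch1. Pts ran from 35.2 CPM in Vip/Avp to 87.3 CPM in Sst/Hmgn5, and Qdpr from 63.2 CPM in Slc17a8/Prdm13 to 134 CPM in Agrp/Npy. Pts and Qdpr thus varied little between neuron clusters, and Gch1 more.

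**Figure D1:**
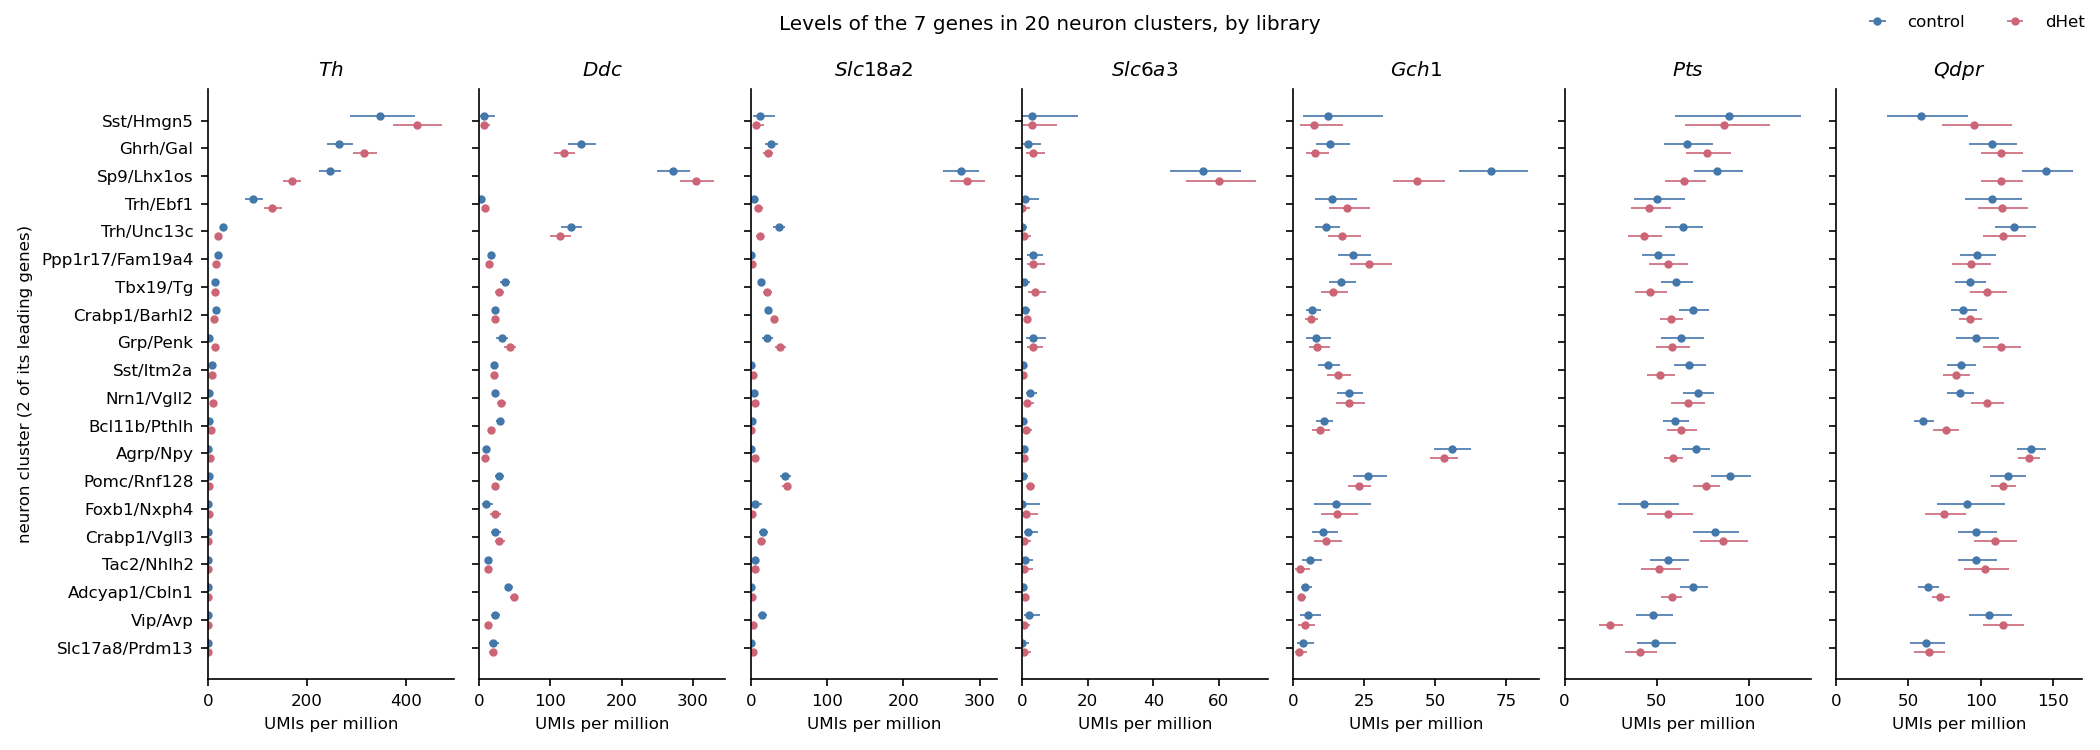
Level of each gene (CPM, linear axis from 0, one panel and scale per gene) in the 20 neuron clusters, with control and dHet as separate points and bars for exact 95% counting intervals. Clusters are ordered by Th; Ddc, Slc18a2 and Slc6a3 stand out in Sp9/Lhx1os, while Pts and Qdpr are alike across clusters.

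The whole pathway was found in few cells, most of them of one cluster. Of 5156 neuron-like cells, 585 (11.3%) had a Th UMI and 302 (5.86%) had Th with Ddc. Adding Slc18a2 left 158 cells (3.06%), and adding Slc6a3 left 87 (1.69%), which were 34 control and 53 dHet cells (1.51% and 1.83% of neuron-like cells). All 7 genes were seen together in 47 cells, 24 control and 23 dHet. Of the 87 cells with Th, Ddc and both transporters, 73 (83.9%) were in the Sp9/Lhx1os cluster, 31 of 34 in the control and 42 of 53 in the dHet library. Grp/Penk held 6 of the others and Ghrh/Gal 4, and the other 4 cells were spread over 4 clusters. Those 4 cells were deep, with 32897 to 45349 UMIs, against a median of 24528 for the 87 cells. Whether they were doublets that the filter missed was not tested. Sp9/Lhx1os also held 42 of the 47 cells with all 7 genes.

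Partial pathways were more common than whole ones. There were 283 neuron-like cells with Th and no Ddc UMI (5.49%) and 1432 with Ddc and no Th UMI (27.8%). Ddc and Slc18a2 without Th were seen in 223 cells (4.33%), 59 of them in Pomc/Rnf128, where this was 19.5% of the cluster. In Trh/Unc13c, 61.4% of cells had Ddc without Th and 16.6% had both. An unseen gene may have been expressed below detection, so the clusters are better compared after every cell was thinned to 8000 UMIs. Shallower cells, 833 control and 843 dHet, were left out. In Sp9/Lhx1os the share with Th was 52.2% before and 42.4% after thinning, and the share with Th, Ddc and both transporters 39.2% and 19.8%. In Ghrh/Gal the share with Th was 91.9% and 80.3%, and the share with the 4 genes 2.50% and 0% (of 142 cells). In Trh/Ebf1 the share with Th was 54.5% and 42.1%, that with Th and Ddc 4.55% and 1.59%, and no cell had the 4 genes. Thinning lowered each of these shares, and Sp9/Lhx1os still had the highest share with the 4 genes.

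Ddc, Slc18a2 and Slc6a3 were each seen in a larger share of neuron-like cells with 2 to 19 Th UMIs than of those without. Ddc was seen in 31.3% of 4571 cells without a Th UMI, in 47.5% of 162 cells with 2 to 4 Th UMIs and in 60.3% of 242 cells with 5 to 19. Slc18a2 went from 11.0% to 31.5% and 43.8%, and Slc6a3 from 2.12% to 17.9% and 23.1%. Ddc and both transporters together were in 0.197%, 14.2% and 21.1% of these cells. The bins differed in depth, with medians of 21715, 20456.5 and 26136 UMIs, and Pts, which varies little between clusters, was seen in 62.9%, 70.4% and 80.6%. So even at 5 or more Th UMIs most cells lacked a UMI of at least 1 of the 3 partners, and 22.4% of 254 such cells held all of them. In the top bin, with 20 or more Th UMIs, 50% of 12 cells did, and Ddc was seen in 7 of them (58.3%). Gch1 was seen in 22.2% of cells without Th, 25.4% with 1 Th UMI, 24.1% with 2 to 4 and 31.0% with 5 to 19.

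**Figure D2:**
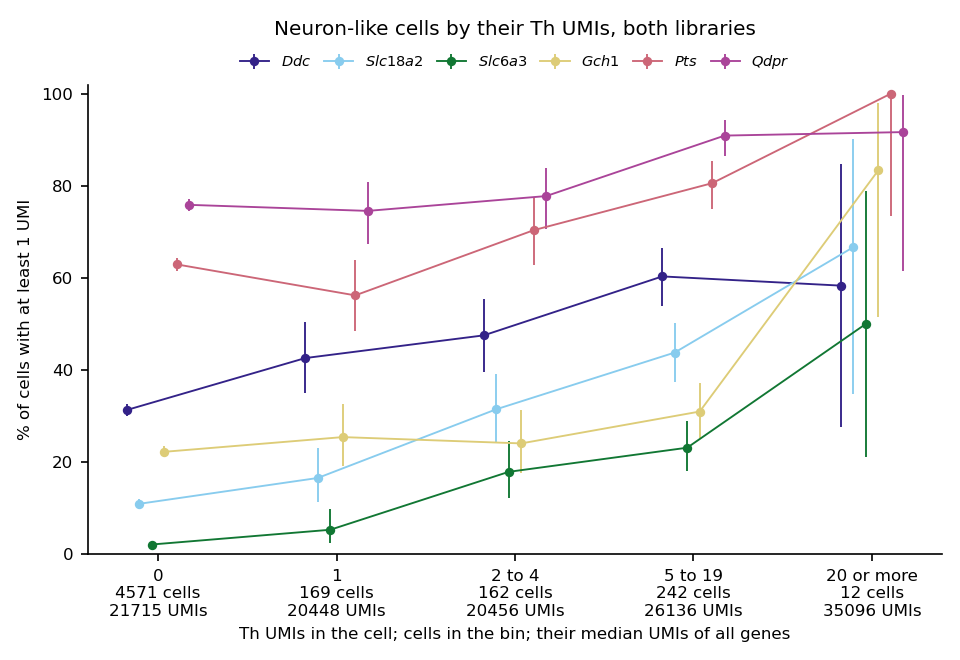
Share of neuron-like cells (both libraries) with at least 1 UMI of each partner gene, on a linear axis from 0, by the number of Th UMIs in the cell; bars are exact 95% binomial intervals and the labels give cells and median depth per bin. Slc6a3 goes from 2.12% of cells without Th to 50% of the 12 cells with 20 or more Th UMIs, with a wide interval in that bin.

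Cells with at least 2 Th UMIs, 172 control and 244 dHet neurons, split by cluster. In Sp9/Lhx1os (39 and 46 such cells) Ddc was seen in 97.4% and 100% of them, Slc18a2 in 97.4% and 100%, and Slc6a3 in 76.9% and 82.6%. All 3 partners were together in 68 of 85 of these cells (80.0%). In Ghrh/Gal (52 and 83 cells) Ddc was in 63.5% and 65.1%, Slc18a2 in 42.3% and 31.3%, and Slc6a3 in 3.85% and 8.43%. These neurons held the synthesis enzymes more often than the transporters, and the dopamine transporter rarely. In Trh/Ebf1 (16 and 38 cells) Ddc was in 1 and 3 cells, Slc18a2 in 0 and 1, and Slc6a3 in none. In Sst/Hmgn5 (10 and 20 cells) Ddc was in 10% and 20%. Gch1 was seen in 66.7% and 60.9% of the Sp9/Lhx1os cells, 25% and 16.9% of the Ghrh/Gal cells, 12.5% and 15.8% of the Trh/Ebf1 cells and 40% and 20% of the Sst/Hmgn5 cells. By share of cells, the 2 libraries gave the same order of Sp9/Lhx1os, Ghrh/Gal and Trh/Ebf1 for each of these 4 partners. For Gch1 the last 2 were close in the dHet library. By level Gch1 was there at 7.96 CPM in Ghrh/Gal and 11.9 CPM in Trh/Ebf1 (16 and 9 UMIs), the other way round.

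**Figure D3:**
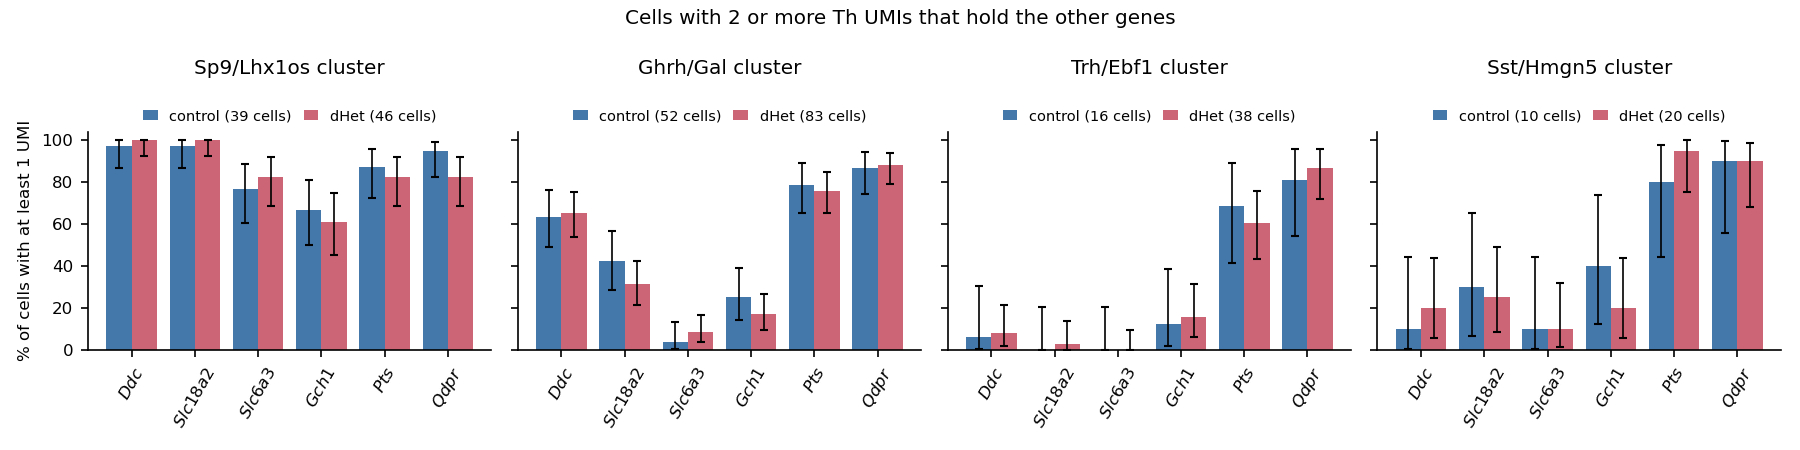
Share of cells with 2 or more Th UMIs that also had at least 1 UMI of each partner gene (bars from 0, control and dHet, exact 95% binomial intervals; cell numbers in the legends), in the 4 clusters with most Th. Ddc and Slc18a2 are in 97.4% to 100% of the Sp9/Lhx1os cells, and Slc6a3 is in 76.9% and 82.6% there against 3.85% and 8.43% in Ghrh/Gal.

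The Sp9/Lhx1os cluster itself held 2 kinds of cell by Th. There were 85 cells with 2 or more Th UMIs (median depth 23730 UMIs), 12 with 1 and 89 with none (median depth 18110). Slc6a3 separated them most sharply, at 110 CPM with Th and 2.27 CPM without, seen in 80.0% and 2.25% of cells. Ddc was at 464 and 87.4 CPM (98.8% and 67.4% of cells) and Slc18a2 at 452 and 87.9 CPM (98.8% and 67.4%). Gch1 was at 88.6 and 22.7 CPM (63.5% and 29.2%). Cells of this cluster without Th thus still held Ddc and Slc18a2 in most cells, each above the median of the neuron clusters, but almost no Slc6a3.

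Other genes split along with Th inside this cluster. Of 3512 genes with at least 200 UMIs in these cells and seen in at least 10% of the cells of either group, 46 were past a fold of 2 higher and 27 lower in the cells with 2 or more Th UMIs, the same way in both libraries (2.08% of genes in all). Cartpt, the precursor of the CART peptide, was at 777 and 384 CPM (control and dHet) in cells with Th and at 1.22 and 3.18 CPM in cells without. A Cartpt UMI was seen in 41.2% of the cells with Th and 4.49% of those without, so most cells of both groups lacked one. The calcium-binding protein Calb1 was at 252 and 223 CPM with Th and 55.0 and 38.1 CPM without, and the neuronal calcium sensor Vsnl1 at 928 and 841 against 91.6 and 199. Calretinin (Calb2) went the other way, at 35.2 and 28.7 CPM with Th and 765 and 674 CPM without, and so did the enkephalin precursor Penk, at 1.96 and 6.94 against 97.7 and 153. Of the cells without Th, 89.9% had a Calb2 UMI but only 38.2% a Penk UMI. Prlr, the prolactin receptor, was higher with Th, at 429 and 510 CPM against 132 and 178. The transcription factor gene Six6 (599 and 532 against 617 and 512) was close in both. The rest of the 10 highest were Cd24a, Cpne4, Plagl1, Tesc, Pcdh20, Pcdh19 and Rasgrp1, and the rest of the 10 lowest were Phlda1, Bcl2, Nxph1, Zfhx3, Ptn, Cited1, Tenm1 and Robo2. The groups were formed by Th in these same cells, so these values describe them and were not tested.

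**Figure D4:**
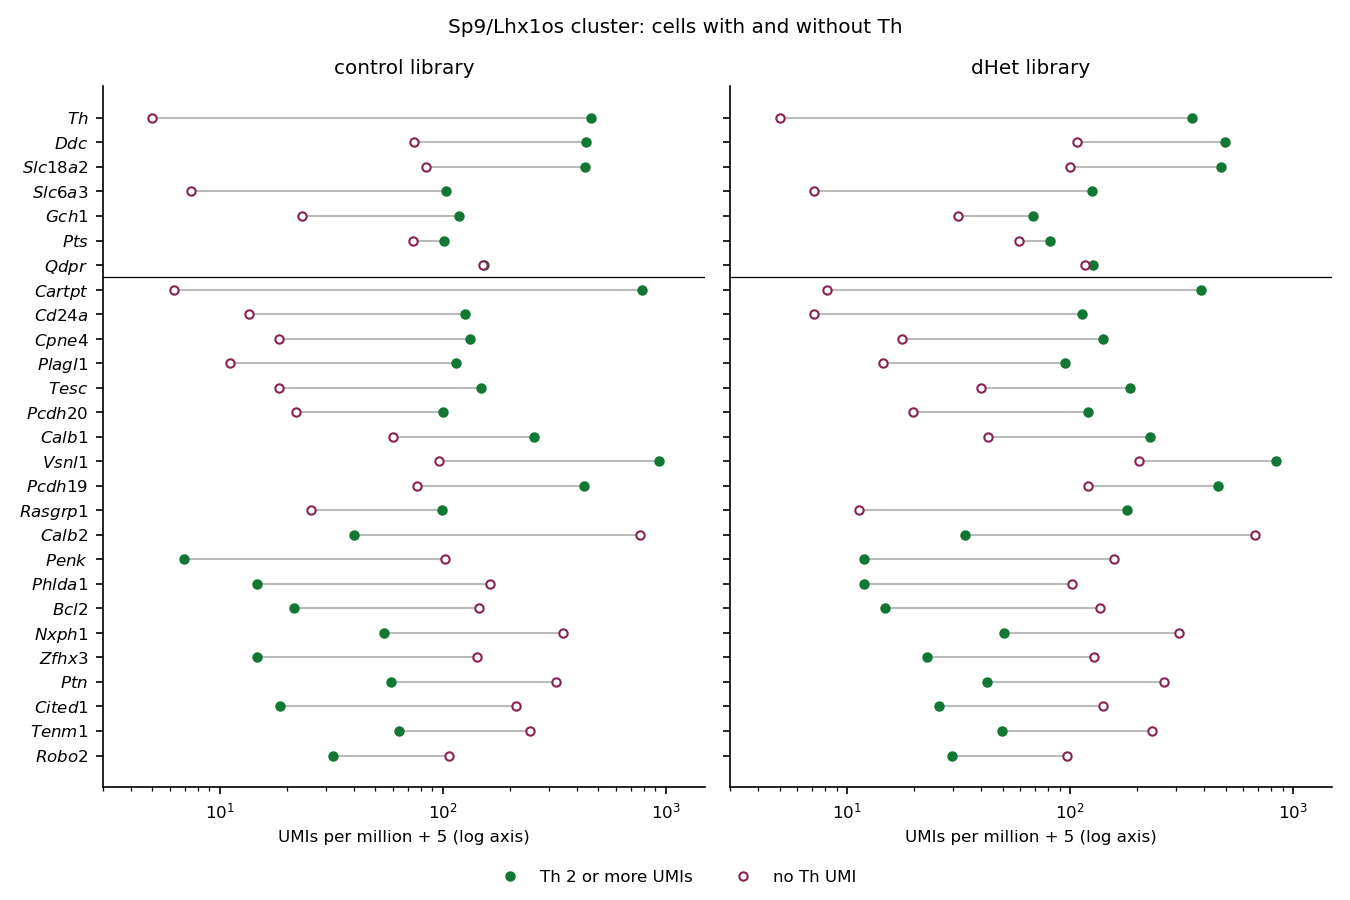
Levels in the Sp9/Lhx1os cluster (CPM plus 5, log axis) in cells with 2 or more Th UMIs (filled) and with none (open), for the 7 genes above the line and the 10 highest and 10 lowest other genes below it; left control, right dHet. Slc6a3 and Cartpt are near the left edge without Th, Calb2 and Penk are higher without Th, and Qdpr is alike in both.

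Th neurons with all 3 partners, called complete here, were then set against those with neither transporter. Among neuron-like cells with at least 2 Th UMIs, 80 (32 control, 48 dHet) had Ddc, Slc18a2 and Slc6a3, and 241 (96 and 145) had neither transporter. Of the latter, 35.7% had a Ddc UMI (56.9 and 45.6 CPM) and 17.8% a Gch1 UMI. Complete cells were 85.0% Sp9/Lhx1os. Cells with neither transporter were 34.0% Ghrh/Gal, 22.0% Trh/Ebf1, 8.71% Sst/Hmgn5 and 7.47% each Crabp1/Barhl2 and Ppp1r17/Fam19a4, with the rest spread over other clusters. Median depths were 25202.5 and 24118 UMIs. Of 5744 genes chosen by the same limits, 80 were past a fold of 2 higher in complete cells and 95 lower in both libraries (3.05% in all). Prlr was at 446 and 407 CPM in complete cells and 15.9 and 10.0 CPM in cells with neither transporter. The homeobox gene Lhx1 was at 333 and 221 against 5.60 and 5.56. The thyrotropin-releasing hormone gene Trh had no UMI in complete cells and was at 160 and 83.3 CPM in cells with neither transporter, and Nkx2-4 was at 2.35 and 0.892 against 137 and 114. Lhx1os, Sp9, Lmo4, Bcl11b, Cdh9, Pcdh20 and Ifi27 were among the other leading genes on the complete side, and Cox6a2, Foxp2, Prox1os, Prox1, Hmx3, Mbnl3, Hmx2 and Cited1 on the other side. Both groups differ in cluster as well as in pathway, and the data do not tell these apart.

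Between genotypes, none of the 7 genes was past a fold of 1.5 over all neuron-like cells, with 5 CPM added to both levels, where 0.283% of 14498 genes with at least 50 UMIs were. Th was at 26.0 CPM in control and 29.2 CPM in dHet neurons (1378 and 1848 UMIs, ratio 1.12, 1.05 to 1.21). Slc18a2 was at 20.5 and 22.7 CPM (1.11, 1.02 to 1.20) and Slc6a3 at 2.98 and 3.35 CPM (1.12, 0.911 to 1.39). Ddc was at 40.5 and 38.4 CPM (0.950, 0.896 to 1.01). Gch1 was at 18.2 and 18.3 CPM (1.00, 0.922 to 1.10), Qdpr at 95.05 and 101 CPM (1.07, 1.03 to 1.11) and Pts at 66.5 and 58.9 CPM (0.886, 0.846 to 0.928). The intervals of Th, Slc18a2, Pts and Qdpr left out 1, but so did those of 42.8% of genes at this depth, so 4 of 7 is not far from the share of all genes. These directions turned for Th and Pts in cells with Y-linked UMIs and no Xist (0.952 and 1.01), for Slc18a2 with all cells of the per-library matrices (0.987) and for Qdpr after thinning (0.994). Outside the 4 Th clusters the Th ratio was 0.991 (0.845 to 1.16), and within them together 1.04 (0.962 to 1.13). The share of neuron-like cells with at least 2 Th UMIs was 7.63% and 8.41% (ratio 1.10, 0.903 to 1.35), and the share of those cells with all 3 partners was 18.6% (32 of 172) and 19.7% (48 of 244). Neither share differed beyond counting error.

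The pooled Th level moved in opposite directions in its largest clusters. In Sp9/Lhx1os it was lower in the dHet library, at 246 against 169 CPM (469 and 360 UMIs, ratio 0.687, 0.597 to 0.790, and 0.788, 0.616 to 1.01, after thinning), while the share of cells with Th was close (51.9% and 52.4%). Among the cells with 2 or more Th UMIs the level was 456 and 348 CPM (ratio 0.764, 0.663 to 0.879). Per cell these held from 2 to 42 Th UMIs in both libraries, with medians of 10 in control and 5 in dHet cells. Such counts also depend on the depth of the cell. In CPM the medians were 367 in control and 249 in dHet cells, and the highest cells were at 1167 and 1851. The cells thus overlap widely, and the middle of the range differs. In Ghrh/Gal Th was higher in the dHet library, at 265 against 316 CPM (1.19, 1.05 to 1.35). In that cluster 13.1% of genes had an interval that left out 1 and 3.55% were past a fold of 1.5, which Th was not. In Trh/Ebf1 Th was at 91.1 and 129 CPM (1.42, 1.11 to 1.82), and in Sst/Hmgn5 at 348 and 421 CPM (1.21, 0.971 to 1.52). Trh/Ebf1 cells with 2 or more Th UMIs were at 246 and 256 CPM (1.04, 0.808 to 1.34), and they were 33.3% and 45.2% of that cluster. The counting interval of Sp9/Lhx1os does not meet those of the other 3, but such intervals leave out the spread between cells. Per cell, Th in Sp9/Lhx1os had a mean of 211 CPM (standard deviation 291, 81 cells) in the control library. In the dHet library the mean was 153 CPM (standard deviation 267, 105 cells). No test of the difference between clusters was possible with 1 library per genotype. Sp9/Lhx1os held 34.0% of all Th UMIs in the control and 19.4% in the dHet library, although it was 3.59% and 3.62% of neuron-like cells.

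The genes that act with Th in Sp9/Lhx1os did not all follow it. Ddc was at 272 and 305 CPM (1.12, 0.998 to 1.26), Slc18a2 at 275 and 283 CPM (1.03, 0.916 to 1.16) and Slc6a3 at 55.1 and 60.1 CPM (1.09, 0.836 to 1.43). The cofactor genes were lower over the whole cluster. Gch1 was at 69.8 and 43.6 CPM (133 and 93 UMIs, 0.626, 0.475 to 0.822), Pts at 82.9 and 64.8 CPM (0.781, 0.617 to 0.988) and Qdpr at 145 and 114 CPM (0.785, 0.658 to 0.936). With coarser clusters (Leiden resolution 0.5) the Qdpr ratio was 0.950 (0.835 to 1.08). Intervals left out 1 for 4 of the 7 genes (Th, Gch1, Pts and Qdpr), all lower, and for 13.2% of the genes with at least 50 UMIs in this cluster. Gch1 was the single member past a fold of 1.5, where 3.17% of 8446 genes were. Its control level leaned on a few cells. The 5 highest cells held 45.9% of its UMIs in the control and 26.9% in the dHet library, with up to 20 UMIs in a control and 7 in a dHet cell, and without the 5 highest cells of each library the ratio was 0.812 (0.574 to 1.15). The Th ratio without its own 5 highest cells was 0.652 (0.547 to 0.776). In the cells of this cluster with no Th UMI (39 and 50), Ddc was at 69.6 and 103 CPM (1.48, 1.05 to 2.08) and Gch1 at 18.3 and 26.5 CPM (1.45, 0.733 to 2.95). The ratio in those cells was 0.790 (0.530 to 1.18) for Pts and 0.766 (0.584 to 1.003) for Qdpr. With 2 or more Th UMIs it was 0.788 (0.578 to 1.07) for Pts and 0.826 (0.645 to 1.05) for Qdpr. Ratios of Pts and Qdpr were thus alike with and without Th, and each of these intervals took in 1.

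Sex-linked and immediate-early genes moved with genotype in the same clusters. In Sp9/Lhx1os, 54.3% of control and 72.4% of dHet cells had Xist and no Y-linked UMI. The Th ratio was 0.681 (0.568 to 0.817) in those cells and 0.737 (0.584 to 0.926) in cells with Y-linked UMIs only, so Th was lower in the dHet library within each class of cells. Gch1 was at a ratio of 0.543 (0.379 to 0.775) and 0.802 (0.510 to 1.24) in these groups. For Ghrh/Gal the Th ratios were 1.14 (0.964 to 1.36) and 1.25 (1.02 to 1.52), and for Trh/Ebf1 1.02 (0.737 to 1.43) and 1.71 (1.13 to 2.58). Of 7 genes listed as activity-linked regulators of Th, 5 were past a fold of 1.5 lower in dHet neuron-like cells, where 0.179% of all genes were, and none higher. Their median was -0.78 on the log2 scale, against -0.02 for all genes. In Sp9/Lhx1os 3 of 5 with at least 50 UMIs were lower past that fold (1.85% of all genes). Fos was there at 214 and 84.5 CPM (0.395) and Junb at 74.5 and 27.2 CPM (0.365). The median log2 ratio of the list was -0.75 in Sp9/Lhx1os, where Th was lower, and -0.61 in Ghrh/Gal, -0.69 in Trh/Ebf1 and -1.78 in Sst/Hmgn5, where the Th level was above that of the control. The part of these genes in the Th result was not tested.

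**Figure D5:**
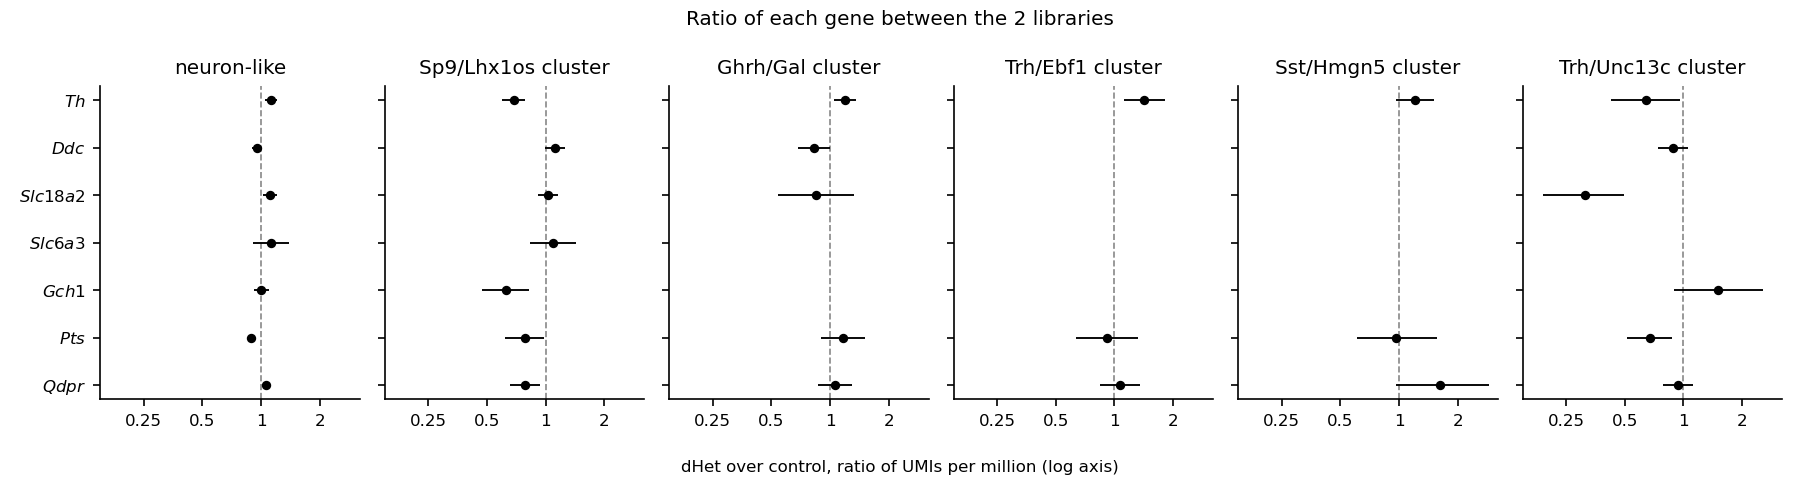
Ratio of dHet to control levels for the 7 genes (log axis, dashed line at 1, bars for exact 95% counting intervals) in all neuron-like cells and in 5 clusters, for genes with at least 50 UMIs there. Th and the cofactor genes lie left of the line in Sp9/Lhx1os, while Th lies right of it in Ghrh/Gal and Trh/Ebf1.

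Of all 20 neuron clusters, 17 had at least 50 cells in each library, and ratios were read where a gene had at least 20 UMIs. Of all gene and cluster pairs so read, 14.6% had an interval that left out 1. Pts was below 1 with such an interval in 9 of 17 clusters and above it in none. Of 8897 genes read in all 17 clusters, 2.92% were lower in the dHet library in as many clusters or more. Its ratios ran from 0.512 in Vip/Avp (92 and 56 UMIs, 0.360 to 0.721) to 1.17 in Ghrh/Gal. Th was higher in 5 and lower in 3 of 11 clusters, Slc18a2 higher in 4 and lower in 2 of 12, and Ddc higher in 1 and lower in 3 of 17. Qdpr was higher in 2 and lower in 1 of 17, and Gch1 lower in 1 of 14. Several of these rested on few cells. Slc18a2 in Trh/Unc13c was at 36.8 and 11.5 CPM (0.312, 0.190 to 0.494), past a fold of 1.5 where 2.87% of the genes of this cluster were, and 5 cells held 56.7% of its control and 70.8% of its dHet UMIs. Slc18a2 in Agrp/Npy had 3 and 47 UMIs, 40 of them in a single dHet cell. Th in Grp/Penk had 4 UMIs in the control and 37 in the dHet library, which sat in 8 of 152 dHet cells.

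Genes around the pathway differed little between the libraries. None of the 5 other tetrahydrobiopterin genes, each with at least 50 UMIs, was past a fold of 1.5 in neuron-like cells (median log2 ratio -0.03, as against -0.02 for all genes). Spr, which makes the final reduction of the cofactor, was at 24.1 and 22.7 CPM, and Pcbd1, which recycles it, at 142 and 140 CPM. None of 7 monoamine breakdown genes was past that fold either, with Maoa (monoamine oxidase A) at 58.9 and 65.5 CPM and the 7 with a median log2 ratio of -0.07. None of 7 dopamine receptor and partner genes with at least 50 UMIs was past it either, and their median was -0.05. In Sp9/Lhx1os Maoa was at 74.5 and 99.5 CPM (1.34, 1.07 to 1.66) and Prlr at 292 and 350 CPM (1.20, 1.07 to 1.34), both higher in the dHet library where Th was lower. Sp9/Lhx1os cells were GABAergic by their genes, with Gad1 at 464 CPM and the glutamate transporter Slc17a6 at 3.22 CPM over both libraries. Of the midbrain dopamine transcription factors, Nr4a2, Lmx1a and Lmx1b had no UMI there, while En1 was at 21.1 CPM. Dbh, which turns dopamine into noradrenaline, had no UMI in this cluster.

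Genes whose levels ran most like Th, Ddc, Slc18a2, Slc6a3 and Gch1 over 19 neuron clusters of at least 50 cells were found by Pearson's r of log2(CPM + 5), out of 10684 genes. The clusters share libraries and differ in depth, so r is a description. Sst/Hmgn5, the cluster with the highest Th level (397 CPM over both libraries), had 30 cells and was left out. Slc6a3 was closest to the transcription factor gene Sp9 (r = 0.941), followed by Anapc4 (0.771), Rab3b, Mrps35 and Pcnx4. Slc6a3 was at 57.7 CPM in Sp9/Lhx1os and below the added 5 CPM in every other cluster. Its r values therefore rest mainly on the cluster that Sp9 itself leads. Th was closest to the orphan transporter gene Slc10a4 (0.916) and Ankrd54 (0.915), followed by Ubxn10 (0.841), Rogdi (0.826) and the calcium-binding protein gene Scgn (0.823). Slc10a4 and Scgn are among the leading genes of Ghrh/Gal, which had the most Th of these 19 clusters (294 CPM over both libraries). Their r values therefore rest in part on that cluster. Ddc was closest to Coch (0.803), with 4930444P10Rik, Pag1 and Snhg10 also among its closest genes. Slc18a2 was closest to Dhrs7 (0.797), followed by Rad51ap2 (0.779), Gmds, Letm2 and Nagk. Gch1 was closest to Oaz2 (0.828), followed by Phyh (0.792), Ube2b, Psmc2 and Acadm.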

How the data were processed

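Cells of 2 libraries were counted by the authors with Cell Ranger 3.0.2 on mm10, per the submitters' processing notes; no source used here names the gene annotation. Values are the UMI counts of the deposited merged table; for the 7 genes they equal the counts of the 2 deposited per-library matrices in all cells. Libraries shared 4 cell barcodes. Scrublet doublets were removed, and levels were computed as UMIs per 1000000 UMIs (CPM). All kept cells, neurons and others together, were clustered with scanpy 1.11.5 (2000 variable genes, 30 components, 15 neighbours, Leiden resolution 1). Clustering was done without the 7 genes, Irx3, Irx5, mitochondrial, ribosomal, haemoglobin or sex-linked genes. Cells were called neuron-like from markers; 381 cells stayed unnamed. With 1 library per genotype no test between genotypes was made: ratios have exact conditional binomial, levels exact Poisson and shares Clopper-Pearson 95% intervals (scipy 1.17.1), which cover counting error only. The intervals were tried only on simulated Poisson counts without spread between cells. That trial cannot show how they hold where a few cells carry most UMIs of a gene. Python 3.11.15, numpy 2.4.6, pandas 2.3.3 and matplotlib 3.10.9 were used.

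The members, gene lists and tests were chosen with earlier results of these data known. Named genes were all 7 members, up to 4 genes of each list by size of change with at least 50 UMIs, the 5 genes most like a member, and the 10 highest and 10 lowest genes between complete cells and cells with neither transporter; the same rule was used within Sp9/Lhx1os, and some genes it picks are not reported here. Clusters are named by 2 of their leading genes. A few further list genes were named after their values were seen, as were single clusters and the cells with 2 or more Th UMIs. The intended level for Th-rich cells, 1000 CPM, held 4 control and 3 dHet cells, so bins of Th UMIs were used. Genes from overlapping models could not all be told apart: Ddc overlaps the antisense 1700042O10Rik, which had 12 UMIs in neurons. Alternatives covered doublets, cells, thinning, resolution, weights, cells with most UMIs, sex and the pseudocount.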

Additional observations from a re-analysis of the deposited data

How the results depend on the processing

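Of 260 alternative values for 26 results, 237 stayed within counting error and in direction. Those on sex-linked genes, on Th cuts by UMIs, and on leaving out clusters or top cells were among alternatives chosen after seeing the data. No paired analysis was possible because each genotype has 1 library. The direction turned in 5, all of them ratios over neuron-like cells: Th without the 4 clusters with most Th (0.991) and in cells with Y-linked UMIs only (0.952), Pts in the same cells (1.01), Slc18a2 in all cells of the 2 matrices (0.987) and Qdpr after thinning (0.994). Values that moved were Th 1.25, Gch1 0.856 and Pts 0.808 in neuron-like cells with Xist only, and Gch1 1.29 and Qdpr 1.01 in those with Y-linked UMIs only. With neuron clusters weighted equally Slc18a2 was 1.02 and Gch1 0.904, and without the 4 Th clusters Slc18a2 was 1.26. Among the 3 dHet cells above 1000 CPM of Th, 66.7% held all 3 partners and 0% did when 2 UMIs of each were required; no cell passed 2000 CPM, so that cut was not run. The share of genes past a fold of 1.5 in neuron-like cells was 1.02% with 1 CPM added and 0.124% with 20 CPM. In the named clusters, Qdpr in Sp9/Lhx1os was 0.950 at resolution 0.5 and Th in Trh/Ebf1 1.83 without its 5 highest cells. The cause was not tested. The Th ratio in Sp9/Lhx1os stayed below 1 under all 10 alternatives run, from 0.632 to 0.788, and its interval reached 1.01 after thinning. Clustering anew changed the cells of a cluster. The cluster with Sp9 among its leading genes held 186 cells in the main run, 380 at resolution 0.5 and 120 with the matrices. At resolution 0.5 neither Trh/Ebf1 nor Sst/Hmgn5 was a cluster of its own. Depth limits the absence of a gene in single cells, and 1 pool per genotype limits every comparison of genotypes.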

Other observations

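Some of the 7 genes stood in cells other than neurons. Oligodendrocyte-like cells (30 control and 39 dHet) had Ddc at 61.2 and 93.9 CPM (34 and 64 UMIs, in 7 and 12 cells; ratio 1.53, 0.997 to 2.40) and no Th, Gch1 or Slc6a3 UMI. Astrocyte-like and tanycyte-like cells had Ddc at 0.562 and 0.546 CPM with both libraries together. Qdpr in oligodendrocyte-like cells was at 88.2 and 147 CPM. Of their Qdpr UMIs, 45.6% were in 5 cells, and of their Ddc UMIs 46.9%. Gch1 was at 54.9 CPM in pars tuberalis-like and 36.1 CPM in ependymal-like cells, against 0.375 CPM in astrocyte-like cells. Pts was higher in tanycyte-like (126 CPM) and astrocyte-like cells (95.8 CPM) than over all neuron-like cells (62.4 CPM).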
